A study of Mus musculus with 2 samples.

Results

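Secretory progenitors are the crypt cells that have left the absorptive path and have not yet become goblet, Paneth, enteroendocrine or tuft cells. In single-cell libraries of jejunal crypts from 2 mice without miR-375, the cells that the study's annotation named secretory progenitors numbered 50, with 31 in replicate 1 and 19 in replicate 2. They were taken by that name alone, and they formed 1 of the authors' clusters, out of 3207 annotated epithelial cells of 9 types and 3275 annotated cells in all. Both mice were male and 12 months old, carried a whole-body deletion of the miR-375 gene (375KO) made by CRISPR/Cas9, had been backcrossed to the B6 albino background, and were labelled with the strain C57BL6/2J. Each mouse gave 1 library of dissociated crypt cells, read at the 3′ ends of polyadenylated RNA, and the 2 libraries shared 0 cell barcodes among annotated cells. Wild type libraries were not analysed here, so every comparison below is between cell types of 375KO mice, and none measures what the loss of miR-375 did. The matrices have no entry for Mir375, so the deletion itself was not measured here.

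The choice between absorptive and secretory fates in the crypt is made through Notch signalling. A cell that receives a Notch signal keeps the repressor Hes1 on and Atoh1 off, and a cell that escapes it turns on Atoh1, a basic helix-loop-helix (bHLH) transcription factor needed for the goblet, Paneth and enteroendocrine lineages, and presents the ligand Dll1 to its neighbours. Neurog3, a second bHLH factor, is switched on for a short time in the cells that become enteroendocrine cells, where Insm1, Neurod1 and Nkx2-2 act after it. Spdef, Creb3l1 and Klf4 belong to the goblet programme, and Gfi1 acts after Atoh1 to hold back the endocrine programme.

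Atoh1, Dll1 and Neurog3 are the markers that name the cell type, and the windows before their starts are shown because bHLH factors bind the E-box CANNTG. Each line gives the 250 bases before the annotated start in RefSeq (GRCm38.p6), 5′ to 3′ on the gene's strand, and shows in capitals any match to the 2 E-box forms named after the sequences. The Atoh1 window is chr6:64728875-64729124 (plus strand), the Neurog3 window chr10:62132840-62133089 (plus strand), and the Dll1 window, at the outer of its starts in the table, chr17:15376933-15377182 (minus strand).
Atoh1: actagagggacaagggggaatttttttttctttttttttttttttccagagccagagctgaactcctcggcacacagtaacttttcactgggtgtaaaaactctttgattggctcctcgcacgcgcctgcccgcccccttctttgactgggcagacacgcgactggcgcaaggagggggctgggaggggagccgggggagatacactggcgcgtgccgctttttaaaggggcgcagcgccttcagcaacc
Neurog3: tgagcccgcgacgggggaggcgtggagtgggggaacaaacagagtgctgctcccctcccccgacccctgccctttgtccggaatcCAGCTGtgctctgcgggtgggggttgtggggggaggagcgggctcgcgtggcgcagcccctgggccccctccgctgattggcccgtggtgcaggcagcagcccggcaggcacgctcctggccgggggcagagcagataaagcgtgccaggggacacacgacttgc
Dll1: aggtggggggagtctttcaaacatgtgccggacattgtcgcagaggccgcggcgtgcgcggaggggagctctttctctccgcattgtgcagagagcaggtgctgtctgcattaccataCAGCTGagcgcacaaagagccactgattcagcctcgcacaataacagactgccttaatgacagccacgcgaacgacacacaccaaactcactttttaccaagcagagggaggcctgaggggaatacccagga
The Neurog3 window held 1 CAGCTG, which begins 165 bases before the start, and the Dll1 window held 1, which begins 132 bases before it. The Atoh1 window held 0 matches, and so did the window at the inner Dll1 start, chr17:15375824-15376073. CAGCTG, which reads the same on both strands, was found in 13.0% of 32851 windows of this length in the table, and the second form searched, CAGATG on either strand, in 14.4%. A match describes the letters of the window, and its absence says nothing about binding. In the GENCODE M21 annotation on the same build, the gene Atoh1 lies at chr6:64729125-64731245, Neurog3 at chr10:62133090-62134763 and Dll1 at chr17:15367354-15376872.

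The secretory progenitors made up 1.53% of 2032 epithelial cells in replicate 1 (exact 95% Clopper-Pearson interval 1.04 to 2.16) and 1.62% of 1175 in replicate 2 (0.976 to 2.51). The mean was 1.57% ± 0.065 (SD, n = 2), and the mice differed by less than the counting error of either. The cells held 460472 UMIs (tags that mark single captured transcripts) in replicate 1 and 224086 in replicate 2, with a median of 13081 per cell (6556 to 38621) and 10628 (7979 to 23526). The scDblFinder doublet score reached 0.899 in replicate 1 and 0.419 in replicate 2, with medians of 0.0240 and 0.00785, and 4 of the 50 cells scored over 0.4. Values without these 4 cells are given below for the cells divided by Neurog3 and for several gene lists. The intervals in this text cover counting error only.

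Of the 3 markers, Neurog3 and Dll1 stood highest in the summed secretory progenitors of both mice, with the rank of Neurog3 in replicate 2 resting on 1 cell, and Atoh1 did not. Levels are CPM, the UMIs of a gene for each 1000000 UMIs of a type in a mouse, scaled with TMM factors that even out the composition of the libraries (scaled CPM). Neurog3 stood at 236 scaled CPM in replicate 1 (exact 95% Poisson interval 200 to 277, 152 UMIs) and 433 in replicate 2 (360 to 516, 125 UMIs). Enteroendocrine cells (EEC) came next with 78.8 (62.2 to 98.4) and 295 (238 to 362), then goblet progenitors with 8.62 and 18.2. In stem cells, enterocytes, Paneth cells and tuft cells Neurog3 had 0 UMIs in both mice. The intervals of secretory progenitors and EEC lie apart in replicate 1 and touch at their ends in replicate 2 (360 and 362). In replicate 2, 58 of the 125 Neurog3 UMIs lay in 1 cell of 9370 UMIs. Without that cell, an alternative chosen after the data were seen, the level was 242 (188 to 308), below the 295 of all EEC and close to the 236 of replicate 1. EEC of replicate 2 without their own highest cell stood at 224, so the order of both types there changes with single cells. In replicate 1 the level without the highest cell was 198 (165 to 236), above EEC.

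Dll1 stood at 129 scaled CPM (103 to 160, 83 UMIs) and 152 (111 to 205, 44 UMIs) in secretory progenitors. Goblet cells, the next type, had 117 (107 to 129) and 81.4 (69.7 to 94.4), so that the first pair of intervals overlaps and the second does not. Goblet progenitors had 48.5 and 57.1, and Dll1 was at 20.5 or below in every other type of both mice. Atoh1 was at 52.8 (36.6 to 73.8, 34 UMIs) and 48.5 (26.5 to 81.4, 14 UMIs). That level lies with goblet progenitors, at 62.4 and 58.5, and below goblet cells, at 213 and 214. Paneth cells had 148 and 104 by this scale, but 23.0 and 12.6 as CPM without scaling, and their 10 most abundant transcripts held 82.6% and 81.9% of their UMIs. EEC were at 16.4 and 0 and tuft cells at 7.97 and 10.1 scaled CPM of Atoh1, and stem, TA (transit-amplifying) cells and enterocytes at 2.55 or below.

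**Figure D1:**
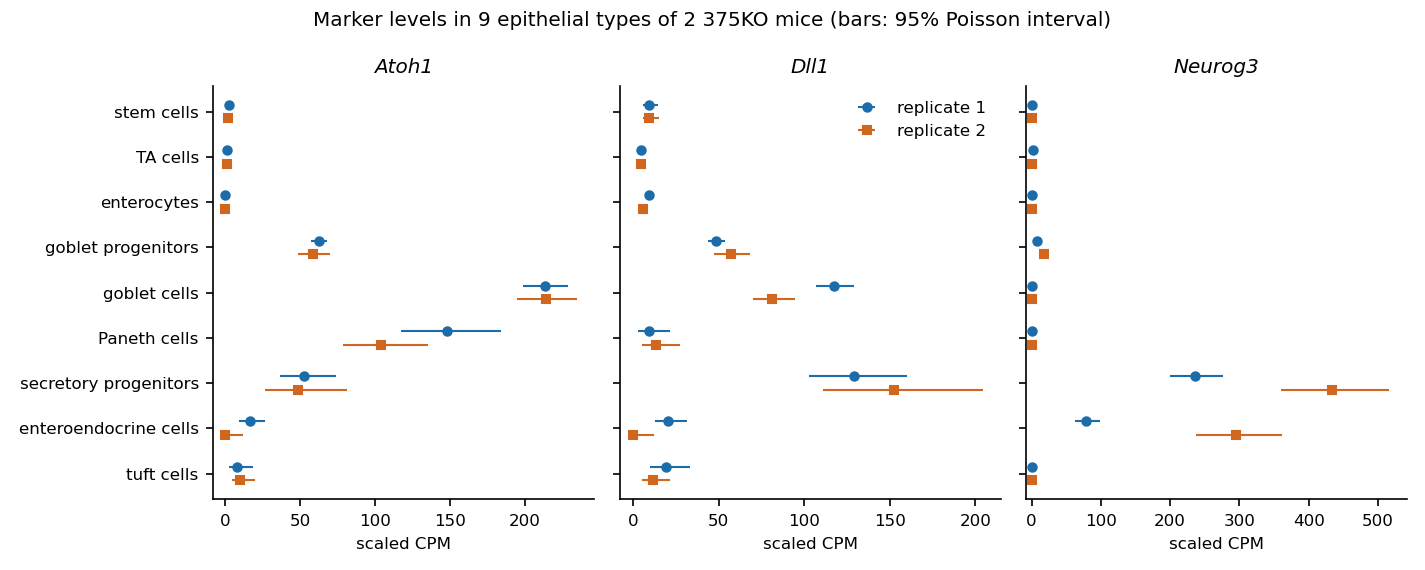
Scaled CPM (x axis, linear) of Atoh1, Dll1 and Neurog3 in the 9 epithelial types (y axis), with circles for replicate 1 and squares for replicate 2 and bars for the exact 95% Poisson interval. Secretory progenitors sit at the top of the scale for Neurog3 (236 and 433, the second with 58 of 125 UMIs in 1 cell) and Dll1 (129 and 152), and at 52.8 and 48.5 for Atoh1, below goblet cells at 213 and 214.

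A gene's log2 fold over the other types was taken within each mouse, as its log2 level minus the unweighted mean of the log2 levels of the other 8 epithelial types. Because it averages logarithms, a gene that is high in some other types and near 0 in the rest can have a positive fold at a level that is not the highest. Atoh1 is such a gene, with log2 folds of 2.05 and 2.71 and a log2 margin under goblet cells of −2.0 and −2.13. The folds of Dll1 were 2.85 and 3.91 and those of Neurog3 7.0 and 7.77. A fit over all 18 sums of type and mouse (edgeR) gave 2.59 ± 0.31 (SE) for Atoh1, 3.11 ± 0.25 for Dll1 and 9.51 ± 0.50 for Neurog3. With all other epithelial cells pooled in place of the mean of types, the log2 fold of Atoh1 fell to 0.81, under the 2-fold limit. Because the annotation came from the expression of these same cells, no test was made of any gene against another type.

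In single cells, the share with a UMI of Atoh1 was 48.4% of 31 cells in replicate 1 and 42.1% of 19 in replicate 2. Dll1 was seen in 74.2% and 78.9%, and Neurog3 in 29.0% and 26.3%. Enterocytes, which should lack all 3 genes, had Atoh1 in 0.107% and 0% of cells, Dll1 in 15.7% and 7.33%, and Neurog3 in 0 of 931 and 0 of 382 cells. Their median depth was 16975 and 13405 UMIs, above that of the secretory progenitors. After each cell was thinned to 5000 UMIs the shares in secretory progenitors were 35.5% and 21.1% for Atoh1, 58.1% and 52.6% for Dll1, and still 29.0% and 26.3% for Neurog3. Thinned enterocytes had Dll1 in 4.30% and 2.62%. In EEC, Neurog3 was seen in 24.1% and 25% of cells, close to the share in secretory progenitors.

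The markers divided the 50 cells. Atoh1 and Dll1 were seen together in 21 cells, Dll1 alone in 10, Dll1 with Neurog3 in 7, Neurog3 alone in 7, Atoh1 alone in 2, and none of the 3 genes in 3 cells. Atoh1 and Neurog3 were seen together in 0 cells, of the 9 with Neurog3 in replicate 1 and the 5 in replicate 2. Neurog3 was all or none, with 6 to 58 UMIs per cell where it was present and medians of 17 and 19. Among goblet progenitors it went down to 1 UMI, with 7 of 162 and 7 of 84 cells positive, and 5 and 2 cells there had UMIs of all 3 markers.

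**Figure D2:**
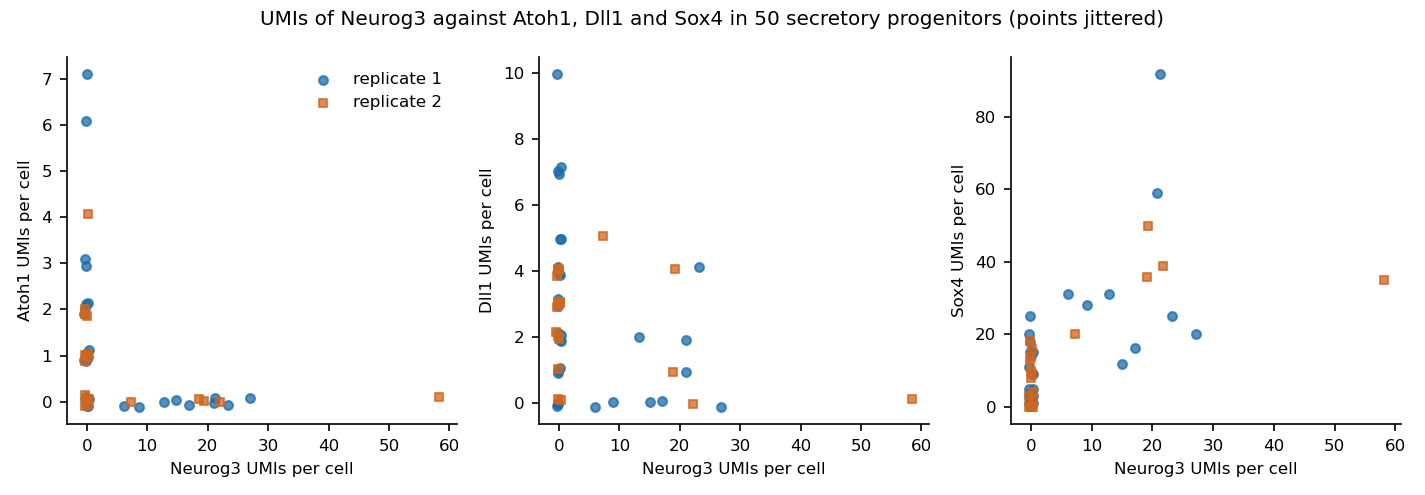
UMIs per cell of Neurog3 (x axis) against Atoh1, Dll1 and Sox4 (y axes) in the 50 secretory progenitors, 1 point per cell, with circles for replicate 1 and squares for replicate 2 and points moved slightly to separate them. The 14 cells with Neurog3 lie on the floor of the Atoh1 panel, spread from 0 to 5 UMIs of Dll1, and reach 92 UMIs of Sox4.

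The 14 cells with Neurog3 held more endocrine transcripts than the other 36 cells of the same annotation. This division was made after the counts had been seen and is given as a description, in CPM of the group of cells without scaling. The groups were of like depth, with medians of 12563 and 9855 UMIs per cell for the cells with Neurog3 and 13095 and 11047 for those without. Sox4, an HMG-box factor of early endocrine precursors, stood at 2478 (2211 to 2768) and 3144 (2701 to 3638) CPM with Neurog3, and at 515 (441 to 598) and 581 (472 to 709) without. Insm1, a zinc finger factor of endocrine differentiation, stood at 418 and 594 with Neurog3 and 21.0 and 42.0 without. Gfra3, a receptor of the GDNF family, had 292 and 419 CPM with Neurog3, against 0 and 12.0. All of these intervals lie apart between the groups of cells in both mice.

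Factors that act after Neurog3 were also higher in these cells. Neurod2 was at 110 and 279 CPM with Neurog3 and at 0 UMIs without it in both mice. Nkx2-2 was at 182 and 175 against 0 and 5.99. Neurod1, which was at 574 and 1052 in EEC with Neurog3, was at 142 and 17.5 in secretory progenitors with Neurog3 and at 0 without. Its value in replicate 2 rests on 1 UMI, too few to show a difference there. Rfx6 (47.3 and 52.4) and Pax4 (39.5 and 52.4) were also seen with Neurog3 only, on 3 to 6 UMIs a mouse. Tubb2b, a beta tubulin, was at 347 and 489 against 86.9 and 71.9, Mfge8, a secreted bridge to phosphatidylserine, at 284 and 402 against 33.0 and 36, and Gadd45g, a growth arrest gene, at 339 and 541 against 47.9 and 30.0.

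Atoh1, Gfi1, Creb3l1, Klf4 and Spdef lay the other way. Atoh1 had 0 UMIs in the cells with Neurog3, which allows up to 23.7 and 52.4 CPM, and stood at 102 (70.5 to 142) and 83.9 (45.9 to 141) in the rest. In replicate 2 that limit lies within the interval of the rest, so the counts there are too few to show the difference. Gfi1 likewise had 0 UMIs with Neurog3, against 39.0 and 24.0 CPM in the rest, a difference that the counts of replicate 2 are too few to show. Creb3l1, a membrane-bound bZIP factor, was at 23.7 and 0 against 174 and 306, Klf4 at 55.2 and 17.5 against 258 and 324, and Spdef at 31.6 and 17.5 against 150 and 156. Tff3, the trefoil peptide of goblet cells, had 6471 and 20102 CPM against 9165 and 17965, which is lower with Neurog3 in replicate 1 and higher in replicate 2. In replicate 1, 368 of the 820 Tff3 UMIs in the cells with Neurog3 lay in the cell of doublet score 0.899, and without the cells of high score the values were 4433 against 10202 CPM. For Dll1 the intervals lay apart in replicate 1 (71.0 against 222 CPM) and overlapped in replicate 2 (175 against 204).

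By summed lists, endocrine transcription factors took 0.539% and 0.683% of UMIs in the cells with Neurog3 and 0.0770% and 0.0821% in those without. In EEC with Neurog3 the share was 0.601% and 1.0%. Neurog3 is itself on this list, so part of the gap between cells with and without it is set by the division. It made up 152 of 126718 UMIs in the secretory progenitors with Neurog3 of replicate 1 and 125 of 57258 in replicate 2. Hormones and granule genes separated the secretory progenitors with Neurog3, at 0.165% and 0.0279%, from EEC with Neurog3, at 3.39% and 5.74%, and from EEC without, at 10.8% and 16.4%. Chga, the granule protein chromogranin A, was at 94.7 and 0 CPM in the former against 2387 and 2677 in EEC with Neurog3. Chgb had 0 UMIs in the secretory progenitors with Neurog3. Of the 209 UMIs of this list in the cells with Neurog3 of replicate 1, 144 were ghrelin from 1 cell, which held 144 of 144 Ghrl UMIs, 46 of the 59 Cdkn1c UMIs and 6 Neurog3 UMIs, at 28687 UMIs and a doublet score of 0.0443.

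Genes of G2 and mitosis took 0.0142% and 0.0140% of UMIs in the cells with Neurog3, 0.0998% and 0.0869% in the cells without, and 0.242% and 0.176% in goblet progenitors. Mki67, the proliferation marker, was seen in 0 of 9 and 1 of 5 cells with Neurog3 and in 7 of 22 and 6 of 14 cells without. Cdkn1a, an inhibitor of cyclin-dependent kinases, stood at 900 CPM with Neurog3 against 87.5 in replicate 1. In replicate 2 it was at 105 against 83.9, too close to show a difference at these counts. Gadd45a was at 545 and 349 against 33.0 and 65.9. Leaving out the 4 cells with high doublet scores, 2 of which had Neurog3, gave Sox4 levels of 2635 and 3144 CPM against 522 and 656. Endocrine factors, with Neurog3 counted among them, were then at 0.576% and 0.683% against 0.0756% and 0.0921%. Goblet genes, at 0.989% and 2.15% with Neurog3 and 1.82% and 2.67% without, moved to 0.530% in the first of these values, and the G2 and mitosis share of replicate 1 with Neurog3 moved to 0.00606%. The part of doublets in these values was not tested.

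**Figure D3:**
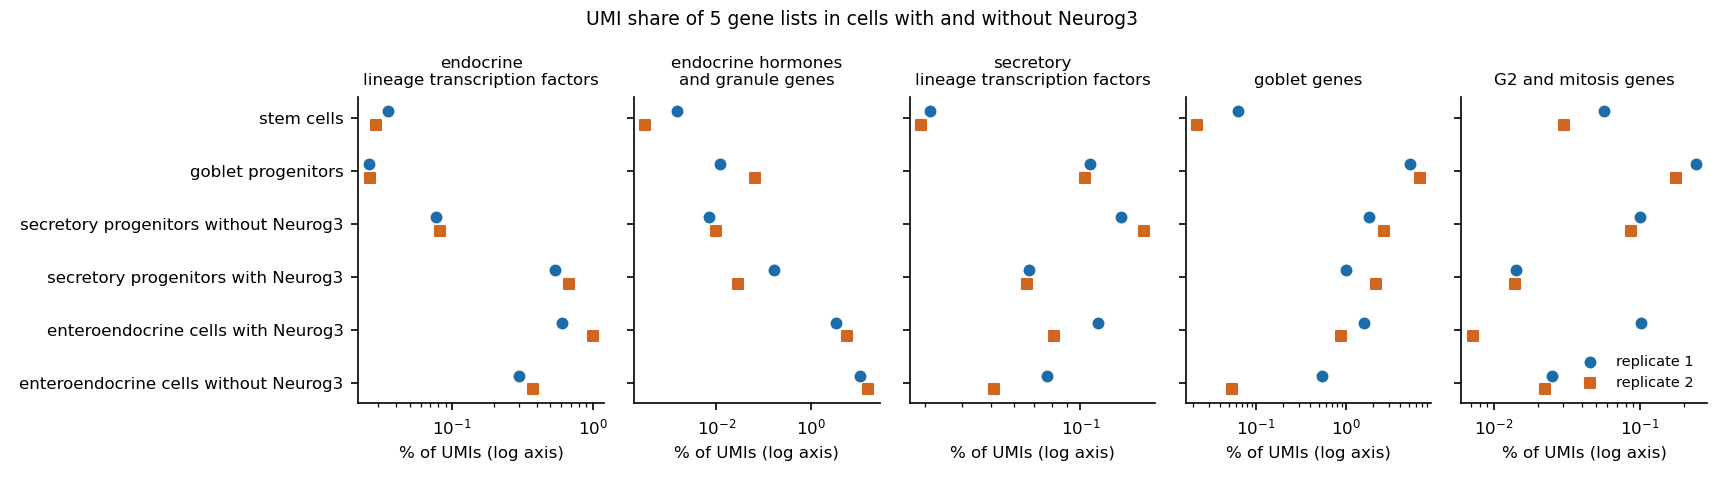
Percent of UMIs (x axes, logarithmic) taken by 5 gene lists in 6 groups of cells (y axis), with circles for replicate 1 and squares for replicate 2. Neurog3, by which the cells are divided, is itself on the list of endocrine factors. Secretory progenitors with Neurog3 lie near EEC with Neurog3 in endocrine factors (0.539 and 0.683 against 0.601 and 1.0), lie far below them in hormones (0.165 and 0.0279 against 3.39 and 5.74), and lie below the other secretory progenitors in G2 and mitosis genes.

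Over all genes, secretory progenitors were at least 2-fold above the mean of the other types in both mice for 384 of 11013 genes past the filter on low counts (3.49%), and at least 2-fold below for 580 (5.27%). Of the 384 genes, 67 reached 50 scaled CPM in both mice and 243 had fewer than 20 UMIs in both mice together, so most of the count rests on sparse genes. The log2 folds of all genes had medians of −0.03 and −0.14, 61.1% of genes had the same sign in both mice, and the folds of the mice correlated across genes with a Spearman rho of 0.27. That correlation is over genes that share libraries and depth, and it describes only how far the 2 small sums repeat each other.

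The 25 genes with the highest mean fold, among those at 50 scaled CPM or more in both mice, held members of several lists. Neurog3, Insm1, Sox4 and Tox3 are on the list of endocrine factors, Spdef, Cbfa2t3 and Creb3l1 on that of secretory factors, and Agr2, Tff3 and Fcgbp on that of goblet genes. By scaled CPM, 7 of the 25 were at their highest in secretory progenitors in both mice (Neurog3, Sox4, Dll1, Marcksl1, Tubb2b, Gadd45b and Mfge8) and 15 were higher in another type. After Neurog3 came Insm1, at 93.3 and 142 scaled CPM and log2 folds of 5.42 and 6.06, and Gfra3, at 57.5 and 90.1 with folds of 5.05 and 5.36. Both were higher still in EEC, where Insm1 reached 218 and 215 scaled CPM. Sox4 followed at 755 (690 to 826) and 959 (850 to 1079) scaled CPM with log2 folds of 4.10 and 3.96. Tuft cells, the next type for Sox4, had 312 and 274, and stem cells 160 and 140, with no overlap of their intervals with those of secretory progenitors. Marcksl1, an actin-binding protein of the MARCKS family, Tubb2b, Mfge8, Cbfa2t3 (a transcriptional corepressor), Gadd45b, Gadd45g and the HMG-box gene Tox3 also belonged to the 25, with log2 folds between 1.64 and 3.37.

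Agr2, a disulfide isomerase needed for mucin folding, was at 2683 and 2515 scaled CPM with log2 folds of 2.44 and 5.82. The spread of its fold came from the other types, since the fit gave 3.27 ± 1.09 (SE) while the levels of the 2 mice were nearly equal. Tff3 was at 6029 and 14368 scaled CPM (folds of 2.67 and 2.98), and was among the 10 most abundant transcripts of secretory progenitors in both mice. Fcgbp, a mucus protein, was at 1551 and 1538 (3.36 and 3.31), and Spdef at 83.9 and 93.5 (2.83 and 3.48). Each of these 4 genes was higher in goblet cells, with log2 margins between −3.57 and −1.09. By scaled CPM, Gadd45g and Rnase1 were highest in Paneth cells, and Myl7 and Fabp5 in EEC. The scaling raises the levels of Paneth cells strongly, as given above for Atoh1. Without scaling, Gadd45g was lower in Paneth cells than in secretory progenitors in both mice. Rnase1 was then still highest in Paneth cells in replicate 1, but goblet cells stood above them in replicate 2. Creb3l1, the selenoprotein gene Selm, the small GTPase gene Rab15, the ribonuclease gene Rnase1, Hepacam2, Myl7, the lipid-binding gene Fabp5, the mitotic activator Cdc20 and the microtubule regulator Stmn1 completed the 25, with log2 folds between 1.38 and 3.09.

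**Figure D4:**
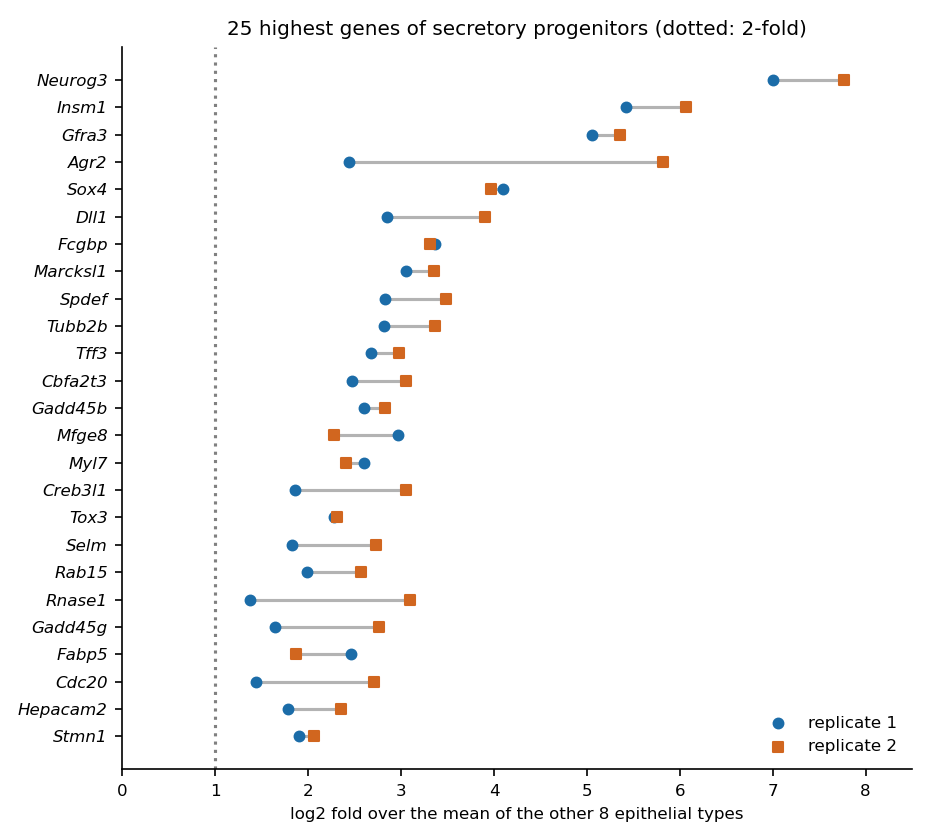
Log2 fold over the mean of the other 8 epithelial types (x axis) for the 25 highest genes (y axis), with circles for replicate 1, squares for replicate 2, a grey line between the mice and a dotted line at 2-fold. Neurog3 leads with 7.0 and 7.77, and Agr2 has the widest spread between the mice, at 2.44 and 5.82.

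Secretory progenitors had the highest level by 2-fold over every other type in both mice for 10 genes (0.0908% of 11013). Sox4, with log2 margins over the next type of 1.27 and 1.80, and Tubb2b, with 1.03 and 1.88, were the most abundant of them. The zinc transporter gene Slc39a2 had the widest margin in the mean of the mice, with 3.16 and 2.17, at 49.7 and 45.0 scaled CPM. In replicate 2, 9 of its 13 UMIs lay in 1 cell, without which it was at 14.6 scaled CPM, and Poc1a had a wider margin there (2.38). Bcl2, the inhibitor of apoptosis, was at 34.2 and 48.5 scaled CPM with margins of 1.82 and 1.95. Mreg (24.9 and 38.1 scaled CPM) and the centriole gene Poc1a (46.6 and 83.1) also passed. Gm26829, Amotl2, Snn and Rnf122 did so on 2 to 10 UMIs a mouse.

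The genes furthest below the mean were mostly products of mature cells. Gip, Defa26 and Gm15299 had 0 UMIs in both mice, at mean levels in the other types of 3287 and 7160 scaled CPM for the incretin gene Gip. That mean rests mostly on EEC, and Paneth cells were the highest type for Defa26 and Gm15299. Stem cells and goblet cells also had 0 UMIs of Gip in both mice, so its absence is not particular to secretory progenitors. Ccl6 and Reg4 were at 3.11 and 9.33 scaled CPM in replicate 1 and at 0 UMIs in replicate 2. S100a1, Fosb, Defa24, Car4, Hpgd and Ramp1 also had 0 UMIs in 1 of the mice. A count of 0 in a sum this small allows up to 3 UMIs. With only 224086 UMIs in replicate 2, such genes carry little precision, and their folds are not given.

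Among lists of known genes other than the list of the 3 markers, secretory lineage factors had the largest share of measured members that were higher by the rule. Their median share of UMIs per cell was much the same in goblet progenitors (0.103% and 0.0966%) as in secretory progenitors (0.0979% and 0.0961%). Atoh1, Spdef and Creb3l1 were higher in goblet cells in both mice. The counts in the lists below stand beside 3.49% of all genes higher and 5.27% lower. The lists were chosen with earlier results of these data known, so the counts and their order are descriptions only. Of 15 secretory lineage factors, 10 were higher in both mice and 0 lower, with median log2 folds of 1.82 and 2.27 beside −0.03 and −0.14 over all genes. They were the marker Atoh1, which names the cell type, and Spdef, Creb3l1, Cbfa2t3, Gfi1 (3.15 and 2.63), Foxa2 (2.31 and 2.65), Tead2 (2.40 and 4.29), Klf4 (1.15 and 2.27), Foxa3 (1.82 and 1.21) and Creb3l4 (1.10 and 1.99). Sox9 was at 38.9 and 62.3 scaled CPM with folds of −0.64 and 0.03, and Xbp1, the factor of the secretory stress response, at 103 and 125 with folds of −0.28 and −0.24. Of 23 endocrine factors past the filter, 9 were higher (the marker Neurog3, Insm1, Sox4, Neurod2, Nkx2-2, Pax4, Rfx6, Tox3 and St18) and 2 lower (Runx1t1 and Fev, with 0 UMIs in both mice). The medians of the endocrine list were 2.38 and 0.55. Isl1, a factor of later endocrine cells, had 18 UMIs in replicate 1, of which 11 lay in the ghrelin cell, and 0 in replicate 2.

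Notch genes are given by role, with counts of members to read against the same 3.49% and 5.27%. Among 4 ligands past the filter, Dll1 and Dll4 were higher, Dll4 at 31.1 and 20.8 scaled CPM with log2 folds of 1.93 and 1.29, and Dll3, with 0 UMIs, lower. Of 12 receptors and signal transducers none was past the 2-fold limit in both mice, with median log2 folds of −0.10 and −0.24. Notch1 had 10 and 2 UMIs, and Notch2 0 and 1. Among modulators the glycosyltransferase gene Lfng was higher (18.7 and 41.6 scaled CPM, folds of 1.82 and 1.97), and Rfng and Neurl1a were lower on 0 to 2 UMIs. Hes1, the target that Notch signalling turns on, was at 51.3 and 34.6 scaled CPM with folds of 1.23 and −0.07. Hes6, a Hes family member that opposes Hes1, was at 173 and 329 with folds of 1.27 and 2.03, and it was seen in every one of the 14 cells with Neurog3.

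Products of mature secretory cells are set against the same shares of all genes, 3.49% higher and 5.27% lower. Of 10 goblet genes, 5 were higher (Tff3, Fcgbp, Agr2, Clca1 and Ccl9) and Ccl6 was lower, while the mucin gene Muc2 was at 124 and 107 scaled CPM with folds of −1.16 and 0.26. The cell of doublet score 0.899 held 28 of the 80 Muc2 UMIs of replicate 1, and without the cells of high score the folds were −1.60 and 0.40. Zg16 (94.8 and 135 scaled CPM) had 46 of 61 and 35 of 39 UMIs in 1 cell of each mouse. Of 18 hormone and granule genes, 6 were lower with 0 UMIs in both mice (Gip, Gcg, Pyy, Nts, Tph1 and Scg2) and Scg5 was higher, on 6 and 1 UMIs. Of 10 Paneth genes 6 were lower and 0 higher. Of 10 tuft genes 3 were lower, among them the defining Dclk1 and Sh2d6, with 0 UMIs in both mice. Pou2f3, the master regulator of tuft cells, was higher on 5 and 3 UMIs, as was Lrmp, whose 9 UMIs in replicate 2 lay in 1 cell that also held 6 of 8 Rgs13 UMIs.

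Stem cell genes had 0 of 12 members past the limit in either direction, with median log2 folds of 0.58 and −1.34, and so did absorptive genes (0 of 10, with 1.38 and −1.89) and S phase genes (0 of 18, with 0.64 and −0.27). The medians of all 3 lists had opposite signs in the 2 mice. For the absorptive genes 1 cell of replicate 1, with 38621 UMIs and a doublet score of 0.868, held 305 of 319 Fabp1 UMIs, 159 of 162 Apoa1 UMIs and 168 of 176 Rbp2 UMIs. Without the 4 cells of high score, 5 of the 10 absorptive genes were lower, and the medians were −1.22 and −1.82. Of 18 G2 and mitosis genes, Cdc20, Tpx2, Cenpf and Plk1 were higher and the checkpoint kinase gene Bub1 lower, with median folds of 0.84 and 0.60, beside 3.49% of all genes higher and 5.27% lower. Without the cells of high score 2 were higher and 0 lower, with medians of 0.21 and 0.38. These folds are over the mean of all types and do not place the list above TA cells or goblet progenitors. Its median share of UMIs per cell was 0.0133% and 0.0227% in secretory progenitors. In TA cells it was 0.311% and 0.209%, and in goblet progenitors 0.218% and 0.141%. Gadd45a, Gadd45b, Gadd45g and Cdkn1c were higher and Cdkn2b lower among 14 G1 cyclins and inhibitors of cyclin-dependent kinases. For both lists the 1 member lower is near the share of all genes. The Cdkn1c call rests largely on 1 cell of each mouse, with 46 of 59 and 4 of 6 UMIs. Of 10 immediate early genes, Fos, Fosb, Junb and Nr4a1 were lower and 0 higher, and without the cells of high score 7 were lower. Among 7 secreted Wnt and BMP pathway genes, Wnt3 (12.4 and 13.9 scaled CPM) and Sfrp5 (31.1 and 38.1) were higher and Bmp2, with 0 UMIs, lower, and among 7 genes of EGF ligands and receptors none passed. Zfp36l1 was the member of the Zfp36 family of 3 that was higher, at 96.4 and 83.1 scaled CPM. Marker genes of lymphocytes summed to 1 and 5 UMIs and those of stroma and endothelium to 0 and 1, with Ptprc, Cd3g, Cd8a, Col1a1 and Acta2 at 0 UMIs in both mice.

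**Figure D5:**
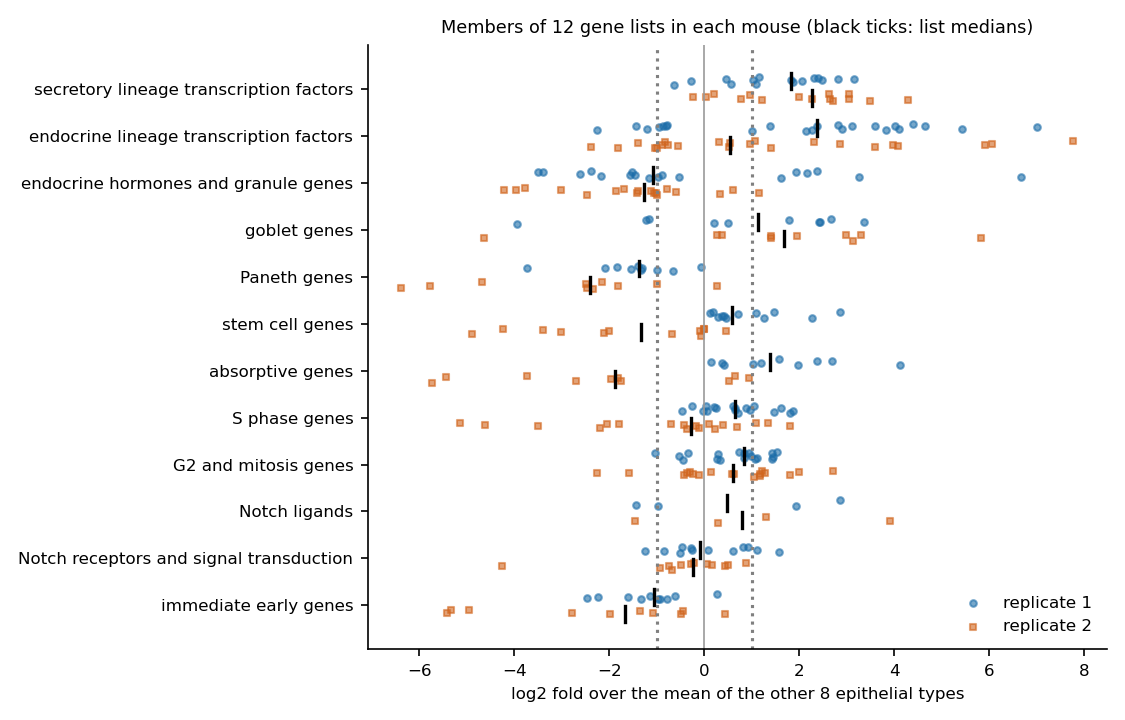
Log2 fold over the mean of the other 8 epithelial types (x axis) for each member past the filter in 12 gene lists (y axis), with circles for replicate 1, squares for replicate 2, black ticks at list medians and dotted lines at 2-fold. The medians of the secretory lineage factors lie at 1.82 and 2.27, and those of stem, absorptive and S phase genes fall on opposite sides of 0 in the 2 mice.

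By the number of genes that differed 2-fold in both mice, secretory progenitors lay nearest to goblet progenitors (1022 genes, 9.28%), then stem cells (1149, 10.4%), TA cells (1384), tuft cells (1529), EEC (1671, 15.2%), goblet cells (1791), Paneth cells (2245) and enterocytes (3037, 27.6%). Across genes the Spearman correlation with goblet progenitors was 0.905 and 0.834 and that with stem cells 0.892 and 0.824. The types differ in depth, which enters such counts.

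Against goblet progenitors 351 genes were higher (3.19%) and 671 lower (6.09%). The highest were Gfra3 (log2 folds of 4.91 and 5.96), Neurog3 (4.70 and 4.53), Insm1 (4.38 and 4.15), Gadd45g (2.93 and 4.73), Marcksl1 (3.54 and 4.01) and Sox4 (3.31 and 3.51). The lowest included the mucus genes Zg16 (−6.89 and −5.97) and Muc2 (−4.00 and −3.61), the chaperone gene Fkbp11 (−3.69 and −4.27), the mitotic kinase gene Cdk1 (−2.67 and −4.35), Ces2e and Ccl6. Atoh1 differed little (−0.24 and −0.27) and Dll1 was higher (1.4 and 1.41). Goblet progenitors were deeper, with median UMIs per cell of 28555 and 19683, and had median doublet scores of 0.201 and 0.0905. The part of that difference in these folds was not tested.

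Against EEC 474 genes were higher (4.3%) and 1197 lower (10.9%). Spdef (2.51 and 4.66), the guanylin gene Guca2a (2.54 and 4.78) and Fcgbp (2.10 and 5.88) were among the 6 highest with Guca2b, Rnase1 and Dll1, the last 3 of which had 0 UMIs in the EEC of replicate 2. The lowest were hormone and granule genes. Gip and Gcg had 0 UMIs in secretory progenitors of both mice, Cck had 24 and 0, Chgb 0 and 1, Reg4 6 and 0 and Rbp4, a retinol carrier, 0 in both. The log2 folds of Neurog3 itself were 1.58 and 0.55, past the 2-fold limit in 1 mouse, and the second rests on the 1 cell named above.

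Against stem cells 539 genes were higher (4.89%) and 610 lower (5.54%). Hepacam2 (5.54 and 7.42) and the goblet gene Spink4 (4.81 and 8.5) were among the 6 highest with Neurog3, Insm1, Agr2 and Guca2a, the last 4 of which had 0 UMIs in the stem cells of replicate 2. The lowest were Igfbp4, the stem cell gene Olfm4, Amica1 (−2.93 and −4.24), Cftr (−1.66 and −3.95), Oat (−1.99 and −3.17) and the glucocorticoid receptor gene Nr3c1 (−1.11 and −3.84). Igfbp4 and Olfm4 had 7 and 26 UMIs in replicate 1 and 0 in replicate 2. Sox4 was higher than in stem cells as well (2.23 and 2.77).

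Of the candidate targets of miR-375 that the study lists, 116 were found in the matrices by symbol and 96 passed the filter. In the secretory progenitors 4 were higher than the mean of the other types (Chd7, Abi2, Traf6 and Pigl) and 1 lower (Arl4c, with 0 UMIs), beside 3.49% and 5.27% of all genes. Chd7, a chromatin remodeller, was the most abundant of these, at 66.8 and 90.1 scaled CPM with log2 folds of 1.13 and 1.20. The median log2 fold of the list was −0.11 and 0.15, near that of all genes. Of the 38 measured candidates with a conserved site, 2 were higher (Abi2 and Chd7) and 1 lower (Arl4c).

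Between the mice, 2205 genes reached 50 scaled CPM in secretory progenitors of either one. Of these 249 were at least 2-fold higher in replicate 1 and 204 in replicate 2, and 132 of these differed in the same direction by 2-fold in at least 5 of the other types. Ribosomal protein genes, counted after their values were seen, differed in 1 direction. Of 78 such genes at this level (Rpl, Rps and Rplp genes with a number), 26 were at least 2-fold higher in replicate 2 and 0 in replicate 1, and 22 of them were so in all 8 other types as well. Rps18, the furthest apart, was at 96.4 and 5237 scaled CPM, and Rps28 at 188 and 2061. Within secretory progenitors Tead2 was at 10.9 and 69.3 scaled CPM, a difference shared with 3 other types. With 1 library a mouse, a difference between mice cannot be told apart from one between libraries.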

How the data were processed

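Libraries of jejunal crypt cells from 2 375KO mice, 1 a mouse, were used. Per the labels and the study's methods, the authors aligned reads to mm10 with Cell Ranger 3.0.1, removed free RNA with SoupX (which matrices this applies to is not stated), and deposited UMI counts per gene and barcode as whole numbers. The authors deposited the mitochondrial percent of each cell, and a scDblFinder doublet score, and removed doublets and cells with fewer than 1500 genes or over 25% mitochondrial reads. They normalised with sctransform, integrated and clustered in Seurat, and named clusters from scores of known markers. Their processing notes give Seurat 3.2.1. The deposited sctransform values were not used, nor were 2937 cell columns of the count table that belong to another series.

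The annotation was joined to the count table of the whole study by cell order. UMI totals and gene numbers there were equal to those annotated in 3275 of 3275 cells. The counts used were taken from the named matrices by barcode, where a cell held up to 262 UMIs more than in that table. Counts were summed per mouse and type into 18 sums of at least 10 cells each. Genes were filtered with filterByExpr and scaled with TMM in edgeR 4.0.16 (R 4.3.3), and log2 CPM used a prior count of 2. A gene was called higher or lower when both mice agreed in sign and each log2 difference reached 1 (2-fold). The quasi-likelihood fit of edgeR gave a log2 fold and SE only. No p-value was computed, since the annotated types are clusters of the same cells. On simulated counts with 200 changed genes this rule recovered 197. Those counts had no other differences between types, and the changes were larger than 2-fold and in genes at 50 CPM or more. The recovery therefore does not cover sparse genes, changes near the limit or types as unlike as those here. Named genes were the 3 markers, the 25 highest and 12 lowest past the rule at 50 CPM or more, the genes with the widest margins over every other type, the 6 highest and 6 lowest against each of 3 types, and list members past the rule. The members, gene lists and named genes were chosen with earlier results of these data known, and the division of cells by Neurog3 was made after their counts were seen. Some genes that this rule names are not reported here. Candidate targets were matched by symbol. Seed matches of miR-375 were planned and not run, because the tables used here hold no mature sequence of it. Libraries are 1 a mouse, so spread between mice includes technical spread.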

Additional observations from a re-analysis of the deposited data

How the results depend on the processing

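With plain library totals in place of TMM factors, 841 genes were higher, the median log2 fold of all genes moved from −0.13 to 0.29, the higher share of all called genes moved from 39.8% to 65.6%, and the median of the candidate targets moved from 0.02 to 0.47. With all other epithelial cells pooled as the reference, 1492 genes were lower, that share fell to 25%, the median of all genes moved to −0.29, the log2 fold of Atoh1 was 0.81, and 26 list members were higher and 72 lower, against 42 and 32. Without the filter on low counts 18 genes were highest by 2-fold over every other type. Under the stricter cell filter (at least 2000 genes and at most 10% mitochondrial reads) the mean share of secretory progenitors was 2.02%. In cells thinned to 5000 UMIs the mean share with a UMI was 28.3% for Atoh1 and 55.3% for Dll1, and Atoh1 and Dll1 were seen together in 11 cells. Why these values moved beyond what each setting changes by construction was not tested.

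With 1 mouse alone the rule asks less, and the counts rose. Higher genes numbered 897 to 1230, lower genes 1262 to 2592, and genes highest by 2-fold 29 to 81. Against goblet progenitors 907 to 1151 genes were higher and 1363 to 2739 lower, against EEC 1223 to 2013 and 2215 to 2707, and against stem cells 1207 to 1347 and 1309 to 2628. Of the list members, 58 to 81 were higher and 48 to 75 lower. The types of a mouse share 1 library, so folds were taken within each mouse, and the edgeR fit held the mouse as a block. Without the replicate block its log2 folds were 2.61 for Atoh1, 3.15 for Dll1 and 9.54 for Neurog3, each within 1 SE of the value with it.

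Without the 4 secretory progenitors of doublet score over 0.4, an alternative chosen after the data were seen, 434 genes were higher, 338 of them among the 384, and 788 lower. Without the cell that held the most Neurog3 UMIs, also chosen after the data were seen, its level was 198 scaled CPM in replicate 1 and 242 in replicate 2, while those of Atoh1 and Dll1 stayed within their counting intervals without theirs. The log2 folds of Neurog3 and Dll1 stayed above 2-fold under every setting in which they were computed, and that of Atoh1 under all but the pooled reference. The settings for single-type comparisons, gene lists and candidate targets were also applied after the data were seen. The 2 sums of 31 and 19 cells limit every value here, and a gene at 0 UMIs in replicate 2 can hold up to 3.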
